A study of Mus musculus with 3 samples.

Results

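Dermal papilla cells of the mouse back skin were selected on measured values, the transcript counts of 9 genes, in 3 libraries made by droplet capture of single cells. A barcode was a member when it held at least 500 genes, at least 1000 unique molecular identifiers (UMIs, which count captured transcripts) and at most 15% mitochondrial UMIs. It also had to show at least 1 UMI of at least 3 of the 7 genes Notum, Slc26a7, Pappa2, Corin, Crabp1, Dkk2 and Rspo3, among them Notum or Slc26a7, and no UMI of Ptprc or Pecam1, which mark immune and endothelial cells. The rule found 1905 members among 33204 barcodes past the quality filter and 62746 deposited barcodes. There were 188 members of 11722 filtered barcodes in the young control, 547 of 9408 in the young knockout and 1170 of 12074 in the old control. The young control and the knockout (labelled YTcKO) were 2.5 months old, carried the floxed alleles Yap1 fl/fl and Wwtr1 fl/fl, and received 0.11 mg/g tamoxifen on 2 days a week for 4 weeks. R26-CAG-CreER, carried by the knockout alone, encodes a recombinase switched on by tamoxifen and driven by a ubiquitous promoter, so deletion was not directed to the papilla. Old control skin was of wild-type, untreated origin and 24 months old, and so differs from the young control in alleles and treatment as well as age. Each group is 1 library. The sources used here do not say how many animals a library holds.

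The dermal papilla is the cluster of mesenchymal cells at the base of the hair follicle. It instructs the epithelium around it through Wnt, BMP, FGF, IGF and TGF-beta family signals, and its own identity depends on signals that come back from that epithelium. YAP and TAZ (the products of Yap1 and Wwtr1) are co-activators that bind TEAD transcription factors and are held in the cytoplasm by the Hippo kinases. The comparisons asked how the papilla profile differed after loss of YAP/TAZ at 2.5 months and at 24 months of age.

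Because a group is 1 library, nothing below was checked against replicates, and no test across animals was possible. Counts were summed over the members of a library and given as counts per 1000000 UMIs (CPM). Intervals in brackets are exact 95% intervals that cover counting error only, and molecules of 1 cell are not independent. A gene was called higher or lower by a rule of size: the mean over the 3 libraries had to reach 20 CPM, the ratio 2 (or, for lower, 0.5 or below), and the interval bound nearest 1 had to lie past 1.5-fold. Both comparisons use the same young control, so their values are set side by side and their overlap is not read as a result. The libraries also differed in sex. Ddx3y, a gene of the Y chromosome, was at 0, 155 and 0 CPM in the young control, the knockout and the old control, and Xist, the RNA of the inactive X chromosome, at 1637, 0.679 and 1412 CPM. The knockout library therefore read as male and both controls as female, and sex and genotype cannot be told apart. Libraries shared 127, 137 and 198 deposited barcode sequences in pairs and no member.

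The rule caught barcodes that differed widely in depth and marker level. Members held a median of 5873, 2286 and 2343.5 UMIs in the young control, knockout and old control, and the 7 rule genes together summed to a median of 8268, 3256 and 4182 CPM. At least 4000 CPM of these genes was held by 138, 199 and 614 members, at a median depth of 4404, 2753 and 2512 UMIs. Exactly 3 of the 7 genes were seen in 34, 266 and 398 members, whose median marker level was 1637, 2462 and 2542 CPM. Barcodes just outside, with 2 of the 7 genes and otherwise within the rule, numbered 84, 329 and 503 and held a median of 248, 1361 and 1499 CPM. Barcodes under 1000 UMIs, used here to read the free RNA of the suspension, held 225, 555 and 676 CPM. The marker part of the rule was also met by barcodes with a UMI of the immune gene Ptprc: 30 of 2782 (1.08%, 0.729 to 1.54) in the young control, 47 of 547 (8.59%, 6.38 to 11.3) in the knockout and 107 of 1429 (7.49%, 6.18 to 8.98) in the old control. Among barcodes without Ptprc or Pecam1 the shares were 2.51% (2.17 to 2.89), 9.39% (8.65 to 10.2) and 12.2% (11.5 to 12.8), at median depths of 5562, 1882 and 1658 UMIs against 4180, 2670 and 2336 in the Ptprc barcodes. The knockout share lay within counting error of that background. It lay above the share in the stricter immune reference barcodes, 5 of 170 (2.94%, 0.961 to 6.73), at a median depth of 4126 UMIs. Of keratinocyte barcodes, 10 of 2508 in the young control and 195 of 3181 in the old control met the marker part. In the knockout it was 37 of 681 (5.43%, 3.85 to 7.41), at a median depth of 3188 UMIs. Those that met it are themselves members, so keratinocyte barcodes are not a separate background. Both definitions ask for no UMI of the fibroblast gene Pdgfra, which can leave out barcodes that hold papilla RNA. The member shares of filtered barcodes, 1.60% (1.38 to 1.85), 5.81% (5.35 to 6.31) and 9.69% (9.17 to 10.2), are therefore not read as a difference in the number of papilla cells.

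**Figure D1:**
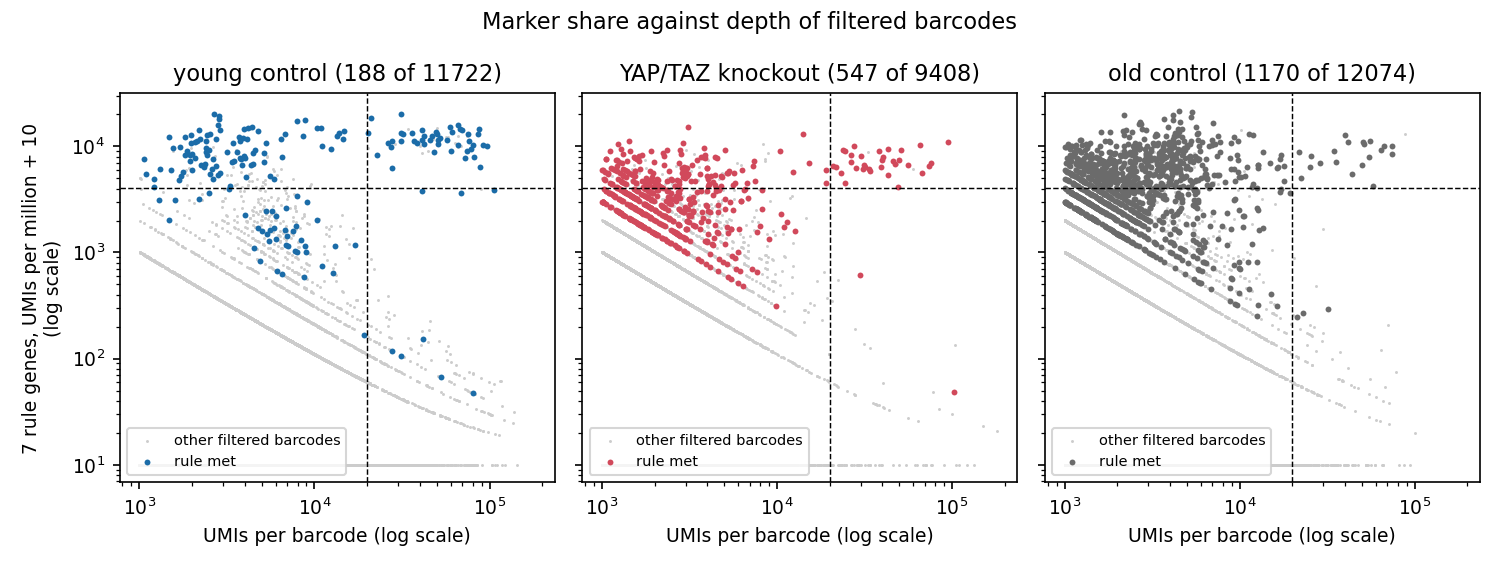
Each point is 1 barcode past the quality filter, with its UMIs on the horizontal axis and the summed CPM of the 7 rule genes on the vertical axis (both log scales, 10 added to the vertical values); coloured points met the rule, and dashed lines mark 20000 UMIs and 4000 CPM. Each library holds a group of deep, marker-rich members at the upper right, and the knockout and old control hold many more members of low depth than the young control does.

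A deeper reading therefore used the members with at least 20000 UMIs and at least 4000 CPM of the rule genes, called core cells here. This subset was chosen after seeing the data. It held 46 young control, 33 knockout and 20 old control cells, with 2465149, 1361232 and 919427 UMIs, which is 68.8%, 46.2% and 19.7% of all member UMIs. Core cells were alike in quality: they held a median of 50327, 38371 and 47057 UMIs and 2.53%, 2.54% and 1.99% mitochondrial UMIs, and every core cell showed at least 6 of the 7 rule genes. The same marker level was reached at this depth by 0 of 94, 0 of 5 and 0 of 9 immune reference barcodes. Of keratinocyte barcodes, members included, it was reached by 0 of 259, 0 of 39 and 0 of 146. Because both definitions leave out barcodes with a Pdgfra UMI, these zeros do not measure how often other cells reach this level. By the limit of 3 counts, a count of 0 allows shares of up to 3.19%, 60% and 33.3% of the immune and up to 1.16%, 7.69% and 2.05% of the keratinocyte barcodes. Among barcodes of this depth with a Ptprc UMI, which the rule leaves out, 13 of 183, 0 of 5 and 1 of 13 met the marker part at this level. Core cells were 7.24% (5.35 to 9.54), 28% (20.1 to 37) and 9.39% (5.83 to 14.1) of all barcodes of at least 20000 UMIs, a share that moves with how many other cell types were captured at that depth.

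**Figure D2:**
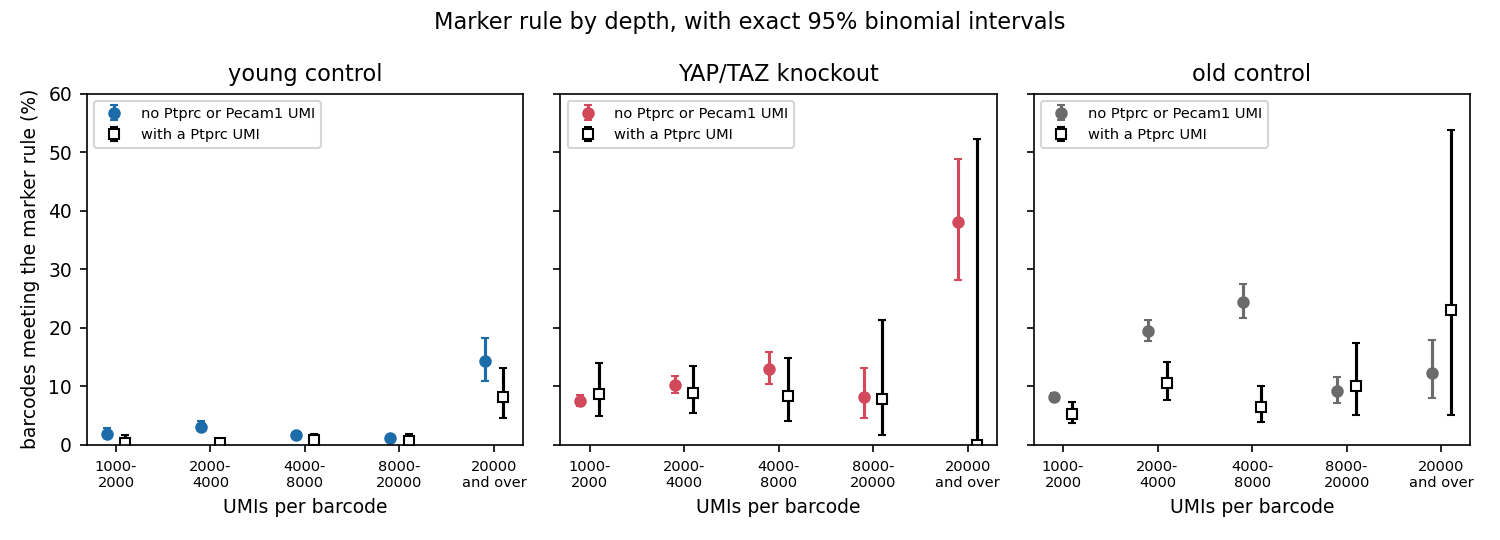
Percentage of barcodes that met the marker part of the rule, by UMIs per barcode, for barcodes without a Ptprc or Pecam1 UMI (filled circles) and with a Ptprc UMI (open squares); bars are exact 95% binomial intervals. Below 20000 UMIs the knockout circles run from 7.48% to 12.9% and its squares from 7.89% to 8.88%. In the old control the circles reach 19.5% and 24.4% in the bins between 2000 and 8000 UMIs, where the squares are at 10.6% and 6.53%.

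The label was checked with 34 papilla genes that the rule did not use, against the dermal fibroblasts of the same library (barcodes with Pdgfra and collagen genes; 2152, 303 and 451 cells). In the core cells 17 of 22 tested papilla genes were higher than in fibroblasts in the young control (background over all genes 12%), 12 of 23 in the knockout (9.96%) and 18 of 23 in the old control (11.4%). Over all members the counts were 15 of 19 (9.06%), 10 of 22 (5.58%) and 15 of 22 (6.84%). Lower than in fibroblasts were 0, 2 and 1 of the papilla genes, in the core cells and over all members alike. The fibroblasts were taken at any depth past the quality filter, also beside the core cells. The part of depth in these counts was not tested. The following 4 genes are examples. Lef1, a nuclear partner of beta-catenin, was at 293, 402 and 493 CPM in the core cells of the young control, knockout and old control, against 6.04, 14.4 and 14.2 CPM in fibroblasts. Spon1, which encodes the matrix protein F-spondin, was at 884, 707 and 848 CPM against 28, 92.7 and 53, and the transcription factor gene Trps1 at 871, 1081 and 883 against 111, 193 and 169.8. Alx4, a homeobox gene of dermal condensates, was at 42.6, 76.4 and 75 CPM against 0.787, 3.76 and 3.02. Each of these 4 genes stood above the fibroblast level in all 3 libraries. Sox2, which marks the papillae of some hair types only, was seen in 9 of 46, 9 of 33 and 2 of 20 core cells.

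The rule genes themselves are given as a description, since they chose the members. In the core cells Crabp1, a retinoic acid binding protein, was the most abundant at 4323, 2858 and 3237 CPM in the young control, knockout and old control. Dkk2, a secreted Wnt antagonist, followed at 3189.7, 1759 and 1281 CPM. Slc26a7, an anion transporter, was at 1511, 1442 and 1765 CPM, nearly level over the libraries. Notum, the enzyme that strips the lipid from Wnt ligands, was at 967, 377 and 1035 CPM, with single core cells at a lowest, median and highest of 179, 1027 and 2645 CPM in the young control and 95.9, 303 and 742 CPM in the knockout. Pappa2, a protease that cleaves IGF binding proteins, was at 1306, 592 and 1048 CPM. Corin, a serine protease of the papilla surface, was at 49.1, 20.6 and 48.9 CPM, and Rspo3, a Wnt amplifier, at 155, 353 and 291 CPM. With every member thinned to 1500 UMIs (180, 431 and 909 members deep enough), Notum was seen in 51.7%, 25.1% and 53.5% of members, beside 82.4%, 43.5% and 71.4% without thinning. In immune reference barcodes the untouched Notum shares were 2.21%, 2.94% and 7.22%, at median depths of 3624, 4126 and 2920.5 UMIs.

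RNA of other cell types moved with the libraries, most of all among the shallow members. Over all members, 10 mural markers (smooth muscle and pericytes) summed to 57.0, 1211 and 141 CPM in the young control, knockout and old control. In the core cells they summed to 50.3, 25.7 and 12 CPM, with 1, 2 and 6 of the 10 at 0. The 12 keratinocyte markers summed to 5185, 2898 and 8228 CPM over all members and to 1653, 185 and 598 CPM in the core cells. The 12 immune markers summed to 126, 193 and 656 CPM and to 59.2, 11 and 26.1 CPM. The 10 melanocyte and Schwann markers summed to 381, 661 and 442 CPM and to 300.2, 94.8 and 25 CPM, and the 14 fibroblast markers to 6546, 3888 and 3072 CPM and to 3236, 2049 and 1526 CPM. In each of these lists the young core cells held the highest sum of the core cells, as they did for 10 endothelial markers (653, 250 and 364 CPM). The 16 dermal sheath genes were highest in the knockout core cells instead, at 318, 786 and 182 CPM. The part of these levels in the results below was not tested except where the core cells are given beside all members.

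The targeted genes were read next. Wwtr1 (ENSMUSG00000027803, chr3:57455649-57575910, minus strand; GRCm38, GENCODE M21) was at 146, 9.55 and 164 CPM in the core cells of the young control, knockout and old control. It was lower in the knockout at 0.0656-fold (0.0346 to 0.114) the young level, and at 0.0754-fold (0.0503 to 0.109) over all members. It was seen in 46 of 46, 9 of 33 and 20 of 20 core cells, with single cells at a lowest, median and highest of 31.9, 145 and 334 CPM in the young control, 0, 0 and 65.2 CPM in the knockout and 84, 145 and 314 CPM in the old control. No knockout cell reached the lowest old cell, while the lowest young cells overlap the highest knockout cells. Yap1 (ENSMUSG00000053110, chr9:7931999-8004596) was at 73, 68.3 and 72.9 CPM, which is 0.936-fold (0.72 to 1.21), with no difference past counting error. The reads lie near the 3' end of a transcript and the sources used here do not say which exons are floxed, so a level Yap1 signal does not check its deletion. In fibroblasts the Wwtr1 levels were 118, 20.04 and 117 CPM.

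Of 25 genes known as YAP/TAZ targets, 17 were tested over all members, of which 3 were lower and 0 higher in the knockout (background 4.60% lower and 4.78% higher of 6543 genes). In the core cells 1 of 14 was lower and 0 higher (4.51% and 4.70% of 6360 genes). The median log2 ratio of the list was -0.30 in the core cells, beside 0.03 over all genes. Amotl2 (ENSMUSG00000032531, chr9:102716672-102733418), an angiomotin family protein that binds YAP, was at 37.3, 7.35 and 22.8 CPM and lower in the knockout at 0.197-fold (0.0914 to 0.379) in the core cells and 0.387-fold (0.275 to 0.537) over all members. Ptpn14, a phosphatase that binds YAP, was at 53.1, 23.4 and 68.5 CPM over all members and was called lower there only. Ctgf, a matricellular protein and the most used target, was at 55.8, 22.4 and 75.3 CPM over all members and lower in the knockout there at 0.401-fold (0.299 to 0.533). Core cells held Ctgf at 32.9, 2.2 and 10.9 CPM, under the level needed for a call. Its relative Cyr61 was at 1251, 1653 and 1169 CPM, a knockout ratio of 1.32-fold (1.25 to 1.4), and was not called. Fibroblasts of the same libraries held 172, 54.5 and 89.6 CPM of Amotl2, again lowest in the knockout library.

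The promoter of Amotl2 is shown because it was called lower in both sets of members and holds a letter match to the TEAD motif. The 250 bases before its start (RefSeq, GRCm38.p6, chr9:102717554-102717803, plus strand), 5' to 3', carry the motif GGAATG once, on the opposite strand, in capitals and 65 bases before the start.
Amotl2: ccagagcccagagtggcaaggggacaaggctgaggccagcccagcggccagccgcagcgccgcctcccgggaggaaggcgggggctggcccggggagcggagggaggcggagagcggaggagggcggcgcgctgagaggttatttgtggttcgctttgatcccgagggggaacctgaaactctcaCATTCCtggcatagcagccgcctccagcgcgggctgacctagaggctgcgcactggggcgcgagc
Both strands were searched. Of 16 listed targets with an entry in the promoter table, 6 held the motif in this window (37.5%), beside 14.4% of all 27025 genes and 12.6% of 32851 promoters. They were Ankrd1, Amotl2, Ajuba, Axl, Crim1 and Ptpn14. Of these 6 only Amotl2 was called lower in the core cells, and only Amotl2 and Ptpn14 over all members. Ctgf, the other target called lower over all members, is not among the 6. Whether the match goes with a call was not tested. A match of letters is a description and does not show binding.

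In the knockout, 313 genes were higher (4.78%) and 301 lower (4.60%) than in the young control over all members. Core cells gave 299 higher (4.70%) and 287 lower (4.51%) genes. The sets share 181 higher genes, which are 57.8% of the calls over all members and 60.5% of those in the core cells, and 190 lower genes (63.1% and 66.2%). The difference between the sets was plain at the top of the list. Myh11, a smooth muscle myosin, was at 7.26, 617 and 47.6 CPM over all members and at 4.46, 7.35 and 1.09 CPM in the core cells. Acta2, Tagln, Cnn1, Des and Actg2 behaved likewise, with 32.9 and 878 CPM of Acta2 in the young control and knockout over all members and 20.7 and 16.2 in the core cells. The genes below are therefore read in the core cells, with the value over all members given where it differs in call.

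Among the genes lowest in the knockout core cells, ranked by the interval bound nearest 1, Spp1 (osteopontin, a secreted matrix phosphoprotein) came next after Xist and fell to 6.61 CPM from 421 CPM, which is 0.0157-fold (0.00716 to 0.0299). Single young cells held a lowest, median and highest of 38.2, 341 and 1384 CPM and knockout cells 0, 0 and 46.4 CPM. Hpgd, the enzyme that inactivates prostaglandins, was at 408, 10.3 and 89.2 CPM in the young control, knockout and old control, a knockout ratio of 0.0252-fold (0.0137 to 0.0425). Of 33 knockout cells 9 showed an Hpgd UMI, against 46 of 46 young cells. Ptgs2, the cyclooxygenase that starts prostaglandin synthesis, was higher in the knockout at 129 against 3.25 CPM, or 39.8-fold (19.8 to 93.7), seen in 21 of 33 cells against 7 of 46. These 2 genes were read singly, and no list of prostaglandin enzymes was counted. Galnt15, a glycosyltransferase that starts O-linked glycans, was at 159, 4.41 and 20.7 CPM. Nov, a matricellular CCN protein, was at 195, 16.2 and 60.9 CPM, the calcium binding protein gene S100g at 214, 20.6 and 31.5 CPM, and Gdf10, a TGF-beta family ligand, at 376, 55.1 and 314 CPM. All 4 of Galnt15, Nov, S100g and Gdf10 were lower in the knockout, by ratios of 0.0276, 0.0828, 0.096 and 0.147, and were also called over all members. Of the other genes at the bottom of this ranking, Anxa8, an annexin, was at 71.8, 1.47 and 16.3 CPM, the chemokine gene Cxcl14 at 273, 22.8 and 74 CPM, and Sncg (gamma-synuclein) at 109, 8.82 and 181 CPM.

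The genes highest in the knockout core cells included Igf1 (ENSMUSG00000020053, chr10:87858265-87937042), the insulin-like growth factor that the papilla gives to the hair matrix. Igf1 was at 36.9, 336 and 116 CPM, higher in the knockout at 9.09-fold (7.25 to 11.5). Every knockout cell showed it, with a lowest, median and highest of 42.9, 287 and 936 CPM, whereas 27 of 46 young cells did, at 0, 21.8 and 229 CPM, and the ranges overlap. Tnfaip6, a hyaluronan binding protein, was at 185, 1115 and 1644 CPM, or 6.03-fold (5.43 to 6.71) in the knockout, with single cells at a lowest, median and highest of 20.3, 550.2 and 6139 CPM in the knockout and 0, 177 and 557 CPM in the young control. Its knockout values are the more widely spread. Flrt1, a leucine-rich repeat receptor that modulates FGF signalling, was at 24.3, 181 and 58.7 CPM. Grm4, a metabotropic glutamate receptor, was at 6.9, 89.6 and 33.7 CPM, and Sncb (beta-synuclein) at 7.3, 63.9 and 78.3 CPM. Chodl, a C-type lectin, was at 22.7, 156 and 21.8 CPM, and Mthfd2, a mitochondrial folate enzyme, at 6.9, 65.4 and 18.5 CPM. These 5 genes were higher in the knockout by ratios of 7.42, 13, 8.75, 6.86 and 9.48 in the core cells, and were called over all members too. The remaining genes at the top of the ranking were Gcat, a threonine breakdown enzyme, at 3.25, 41.1 and 16.3 CPM and Serpina3n, a protease inhibitor of a family with near-identical copies, at 7.71, 71.3 and 26.1 CPM.

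Of 14 genes of the BMP and activin pathway tested in the core cells, 6 were lower and 1 higher in the knockout (background 4.51% and 4.70%), with a median log2 ratio of -0.76 over the 20 measured. Over all members 3 of 16 were lower and 1 higher (4.60% and 4.78%), with a median of -0.50. Bmp4 (ENSMUSG00000021835, chr14:46383520-46390669), a BMP ligand of the papilla that holds back follicle growth, was at 1363, 406 and 931 CPM and lower in the knockout at 0.298-fold (0.272 to 0.326). Single cells held a lowest, median and highest of 440.5, 1439.5 and 3102 CPM in the young control, 139, 434 and 745 CPM in the knockout and 477, 945 and 1612 CPM in the old control, so the ranges overlap, but the knockout median lay below the lowest young cell. Bmp2 was at 273, 122 and 183 CPM and lower in the knockout core cells at 0.446-fold (0.374 to 0.529). Bmp7 was at 259, 295 and 331 CPM and was not called. Inhbb, an activin subunit, was lower at 0.148-fold (0.105 to 0.204), from 203 to 30.1 CPM. Inhba, the other activin subunit, was higher at 2.24-fold (2.0 to 2.51), from 229.6 to 514 CPM, but was not called over all members (192 and 372 CPM). Sostdc1, a secreted antagonist of BMP and Wnt ligands, was at 213, 42.6 and 9.79 CPM, or 0.20-fold (0.15 to 0.262). The BMP response genes Id1 and Id3 were at 169, 58.8 and 42.4 and at 918, 378 and 592 CPM, and both were called lower in the core cells but not over all members.

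In the TGF-beta list 2 of 11 tested genes were lower and 0 higher in the core cells (background 4.51% and 4.70%). Over all members 4 of 11 were lower and 0 higher (4.60% and 4.78%). Tgfb2, which the papilla sends to hair germ cells, was at 424, 58.8 and 171 CPM, or 0.139-fold (0.109 to 0.174). Tgfb1 was at 159, 63.9 and 55.5 CPM, or 0.402-fold (0.315 to 0.508). Their receptor genes Tgfbr1 and Tgfbr2 were at 101, 92.6 and 115 and at 127, 217 and 209.9 CPM and were not called. Called lower over all members only were Ltbp2, a latent TGF-beta binding protein family gene, at 30.7, 13.9 and 29.8 CPM there, and Tgfbi, a matrix protein induced by TGF-beta, at 127, 52 and 105 CPM.

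Among Wnt genes the members moved both ways. Rspo1, an R-spondin that raises the response to Wnt, was at 68.2, 193 and 198 CPM and higher in the knockout at 2.84-fold (2.33 to 3.46), whereas Rspo4 was at 41, 12.5 and 35.9 CPM and lower at 0.305-fold (0.171 to 0.513). Wnt10a, a Wnt ligand, was at 109.9, 49.2 and 125 CPM and lower at 0.448-fold (0.337 to 0.587). The secreted antagonist Sfrp2 was at 7.71, 98.4 and 43.5 CPM and higher at 12.8-fold (7.87 to 21.9), seen in 30 of 33 knockout and 14 of 46 young cells. Wif1, a Wnt binding antagonist, was at 174, 238 and 258 CPM and was not called. Among response genes, Tcf7, a nuclear partner of beta-catenin, was at 51.1, 204 and 103 CPM and higher at 4.0-fold (3.23 to 4.97), and Nkd1, a negative feedback gene, at 49.1, 107 and 99 CPM and higher at 2.19-fold (1.71 to 2.8). Axin2, the most used response gene, was at 33.3, 32.3 and 51.1 CPM and was not called. In counts, 2 of 8 Wnt response genes were higher and 0 lower, 2 of 15 ligand and receptor genes were higher and 2 lower, and 1 of 8 secreted antagonists was higher and 2 lower (background 4.70% higher and 4.51% lower). Over all members 1 of 9 response genes was higher and 0 lower, 1 of 16 ligand and receptor genes was higher and 2 lower, and 1 of 8 antagonists was higher and 3 lower (4.78% and 4.60%). Nkd1 was the response gene not called there. These counts include the rule genes Rspo3, Notum and Dkk2, which chose the members. In the core cells Rspo3 is among the higher and Notum among the lower genes. The ligand, receptor and antagonist counts are therefore not read against the background.

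Receptors and effectors of other signals were called in both directions in the knockout. In the core cells 0 of 10 tested FGF genes were higher and 2 lower (background 4.70% and 4.51%). For Hedgehog genes it was 1 and 1 of 9, and for Notch genes 1 and 2 of 6. Over all members these counts were 0 and 2 of 11, 1 and 1 of 8, and 0 and 1 of 7 (4.78% and 4.60%). Fgfr1, an FGF receptor, was at 1792, 763 and 1155 CPM and lower at 0.425-fold (0.397 to 0.455). Cntfr, the receptor of ciliary neurotrophic factor, was at 243, 36 and 113 CPM and lower at 0.148-fold (0.108 to 0.198). Gas1, a surface protein that binds Hedgehog ligand, was at 929, 334 and 482 CPM and lower at 0.359-fold (0.324 to 0.397), while Gli1, a transcription factor and response gene of the pathway, was higher at 3.15-fold (2.25 to 4.44), from 23.1 to 72.7 CPM. The Hedgehog receptor Ptch1 was at 63.3, 75.7 and 75 CPM and was not called. The FGF ligands Fgf7 and Fgf10 were at 153, 107 and 190.3 and at 108, 212 and 156 CPM and were not called. In the Notch pathway the effector Hes1 was at 657, 244 and 359 CPM and lower at 0.371-fold (0.329 to 0.418), the ligand Jag1 at 121, 41.9 and 60.9 CPM and lower at 0.346-fold (0.256 to 0.461), and the ligand Dll1 at 90.9, 187 and 79.4 CPM and higher at 2.05-fold (1.71 to 2.47); of these 3 only Hes1 was called over all members. In the retinoid list Cyp26b1 (ENSMUSG00000063415, chr6:84571414-84593908), the enzyme that degrades retinoic acid, was the only member of 7 tested to pass (background 4.70% higher and 4.51% lower). It was at 1319, 228 and 700.4 CPM, or 0.173-fold (0.153 to 0.194) in the knockout, with single cells at a lowest, median and highest of 432, 1281 and 3300.2 CPM in the young control and 0, 213 and 643 CPM in the knockout. Fibroblasts of the same libraries held 1558, 1241 and 1662 CPM.

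**Figure D3:**
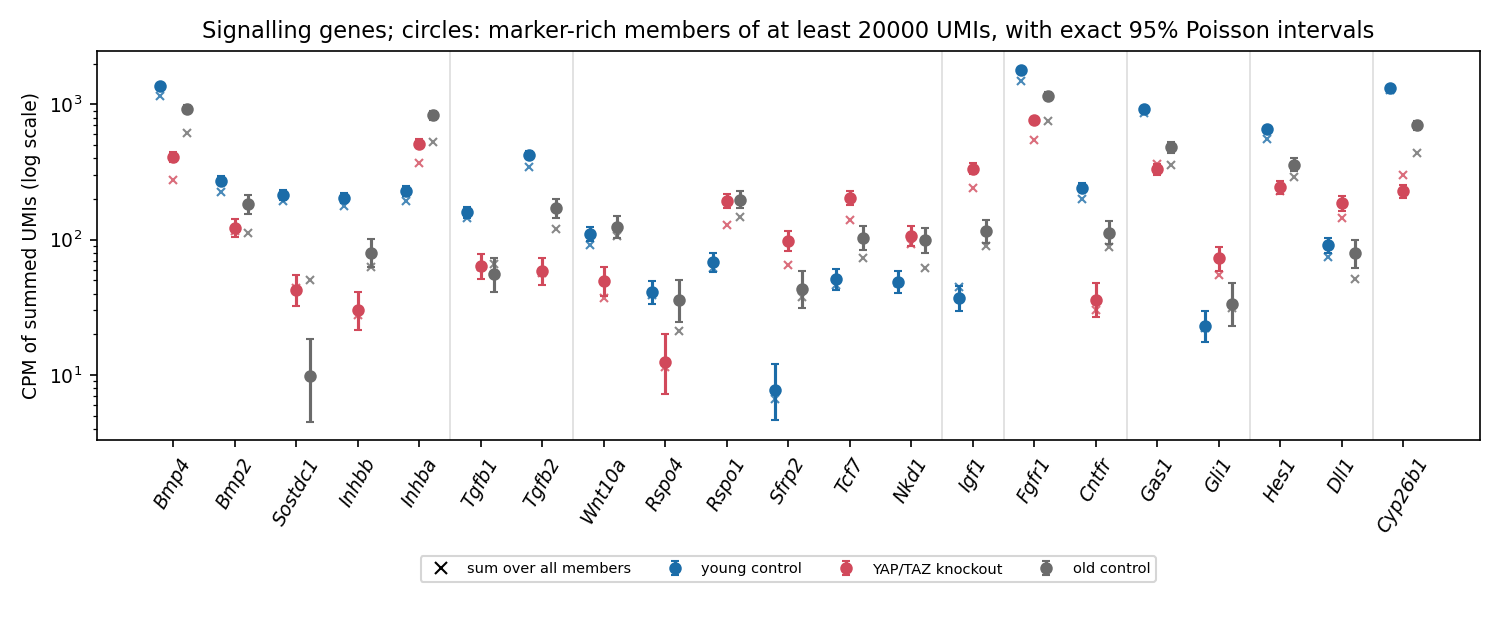
CPM of summed UMIs (log scale) of 21 signalling genes in the core cells (circles, with exact 95% Poisson intervals, some smaller than the symbol) and over all members (crosses) of the young control, knockout and old control, with grey lines between pathways. Bmp4, Tgfb2, Inhbb, Cntfr and Cyp26b1 are lowest in the knockout, while Igf1, Sfrp2, Tcf7 and Gli1 are highest there.

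Among lists with at least 8 tested genes, markers of other cell types aside, the circadian clock had the median farthest from 0 in the knockout, in the core cells and over all members. The lists were chosen with earlier results of these data known, so this rank is a description only. Under that cut, the dermal sheath list (7 tested) had a median log2 ratio of 1.37 over all members. The clock is a feedback loop in which Arntl and Clock drive the Per, Cry and Nr1d genes through E-boxes, and Dbp, Tef and Hlf act on D-boxes. Of 12 clock genes tested in the core cells, 7 were lower and 1 higher in the knockout (background 4.51% and 4.70%), and the median log2 ratio was -1.19. Over all members 7 of 11 were lower and 0 higher (4.60% and 4.78%), with a median of -1.16. Dbp (ENSMUSG00000059824, chr7:45705088-45710203) was at 210.1, 5.14 and 294 CPM in the young control, knockout and old control, a knockout ratio of 0.0245-fold (0.00979 to 0.0508). Single cells held a lowest, median and highest of 83.1, 216 and 369 CPM in the young control, 0, 0 and 42 CPM in the knockout and 159, 296 and 503 CPM in the old control, so no knockout cell reached the lowest control cell. Tef was at 116, 16.9 and 175 CPM, or 0.145-fold (0.0905 to 0.222). Per2 and Per3, repressors of the loop, were at 31.2, 2.2 and 44.6 and at 70.6, 7.35 and 111 CPM, with knockout ratios of 0.0706 and 0.104. Nr1d1 and Nr1d2, the repressors of Arntl, were at 447, 137 and 276 and at 120.5, 46.3 and 149 CPM, with ratios of 0.305 and 0.384. Bhlhe40, another repressor, was at 1195, 566 and 1095 CPM, or 0.474. On the opposite side, Cry1 was at 12.2, 30.9 and 26.1 CPM and higher in the knockout core cells at 2.54-fold (1.55 to 4.2). Arntl was at 8.92, 38.9 and 4.35 CPM, under the mean level needed for a call. Per1, Cry2, Clock and Hlf were tested and not called, with Per1 at 232, 182 and 199 CPM.

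**Figure D4:**
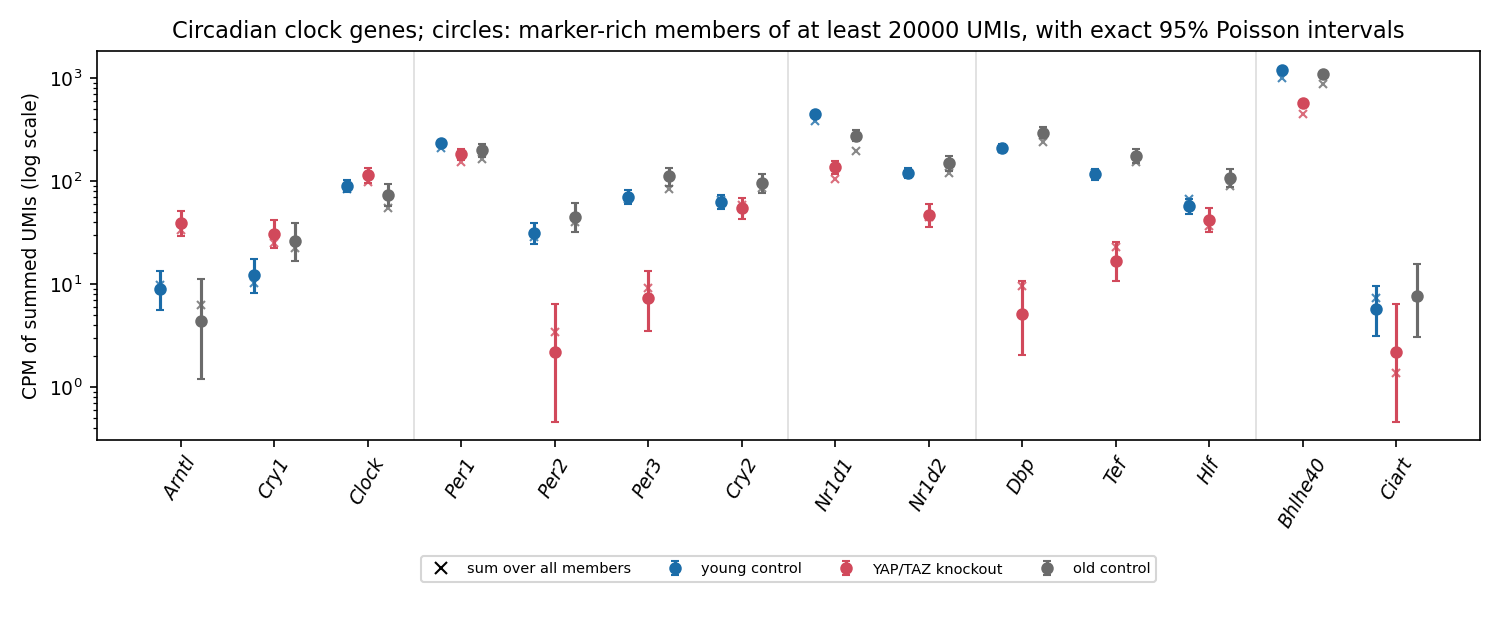
CPM of summed UMIs (log scale) of 14 clock genes in the core cells (circles, with exact 95% Poisson intervals) and over all members (crosses). Dbp, Tef, Per2, Per3, Nr1d1 and Nr1d2 are lower and Arntl is higher in the knockout, while the young and old controls lie close together for most genes.

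Fibroblasts of the knockout library showed the same directions. Dbp was at 181, 15 and 271 CPM and Per3 at 48.2, 12.5 and 72 CPM in the young control, knockout and old control, both lowest in the knockout. Arntl was highest there, at 6.17, 48.8 and 3.88 CPM. The clock values are thus not particular to papilla cells. The sources used here do not state the hour at which skin was taken, so hour and genotype cannot be told apart.

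The promoters of Tef and Per3 are shown because both genes fell in the knockout and hold the letters of the clock's own motifs. Each sequence is the 250 bases before a RefSeq start on GRCm38.p6, 5' to 3', with motif matches in capitals. The E-box CACGTG lies 127 bases before the first start of Tef (chr15:81802423-81802672, plus strand) and 138 bases before the second (chr15:81811164-81811413, plus strand). The D-box TTATGTAA lies 205 and 158 bases before the start of Per3 (chr4:151044666-151044915, minus strand).
Tef, first start: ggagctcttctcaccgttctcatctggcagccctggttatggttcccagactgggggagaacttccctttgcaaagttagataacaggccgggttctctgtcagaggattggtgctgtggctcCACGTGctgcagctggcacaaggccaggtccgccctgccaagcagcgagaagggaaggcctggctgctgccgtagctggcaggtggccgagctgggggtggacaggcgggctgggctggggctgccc
Tef, second start: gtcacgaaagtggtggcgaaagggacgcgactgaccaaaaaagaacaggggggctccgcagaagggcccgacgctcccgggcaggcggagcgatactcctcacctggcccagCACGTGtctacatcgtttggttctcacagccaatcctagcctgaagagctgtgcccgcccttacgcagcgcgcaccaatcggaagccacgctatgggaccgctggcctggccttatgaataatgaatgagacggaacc
Per3: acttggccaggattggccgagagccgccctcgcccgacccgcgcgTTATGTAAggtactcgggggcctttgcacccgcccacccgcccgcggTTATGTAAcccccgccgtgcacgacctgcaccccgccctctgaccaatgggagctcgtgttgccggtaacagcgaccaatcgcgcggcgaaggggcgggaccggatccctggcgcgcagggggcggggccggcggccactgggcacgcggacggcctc
Of 14 listed clock genes with an entry in the table, 5 held the E-box (Per1, Cry1, Tef, Bhlhe41 and Ciart; 35.7%), beside 6.86% of all genes, and Per3 alone held the D-box, beside 0.977% of all genes. Both strands were searched. Among the 5 genes with an E-box, Tef was lower, Cry1 higher, Per1 not called, and Bhlhe41 and Ciart were too low to test, so the match did not sort the genes by direction.

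**Figure D5:**
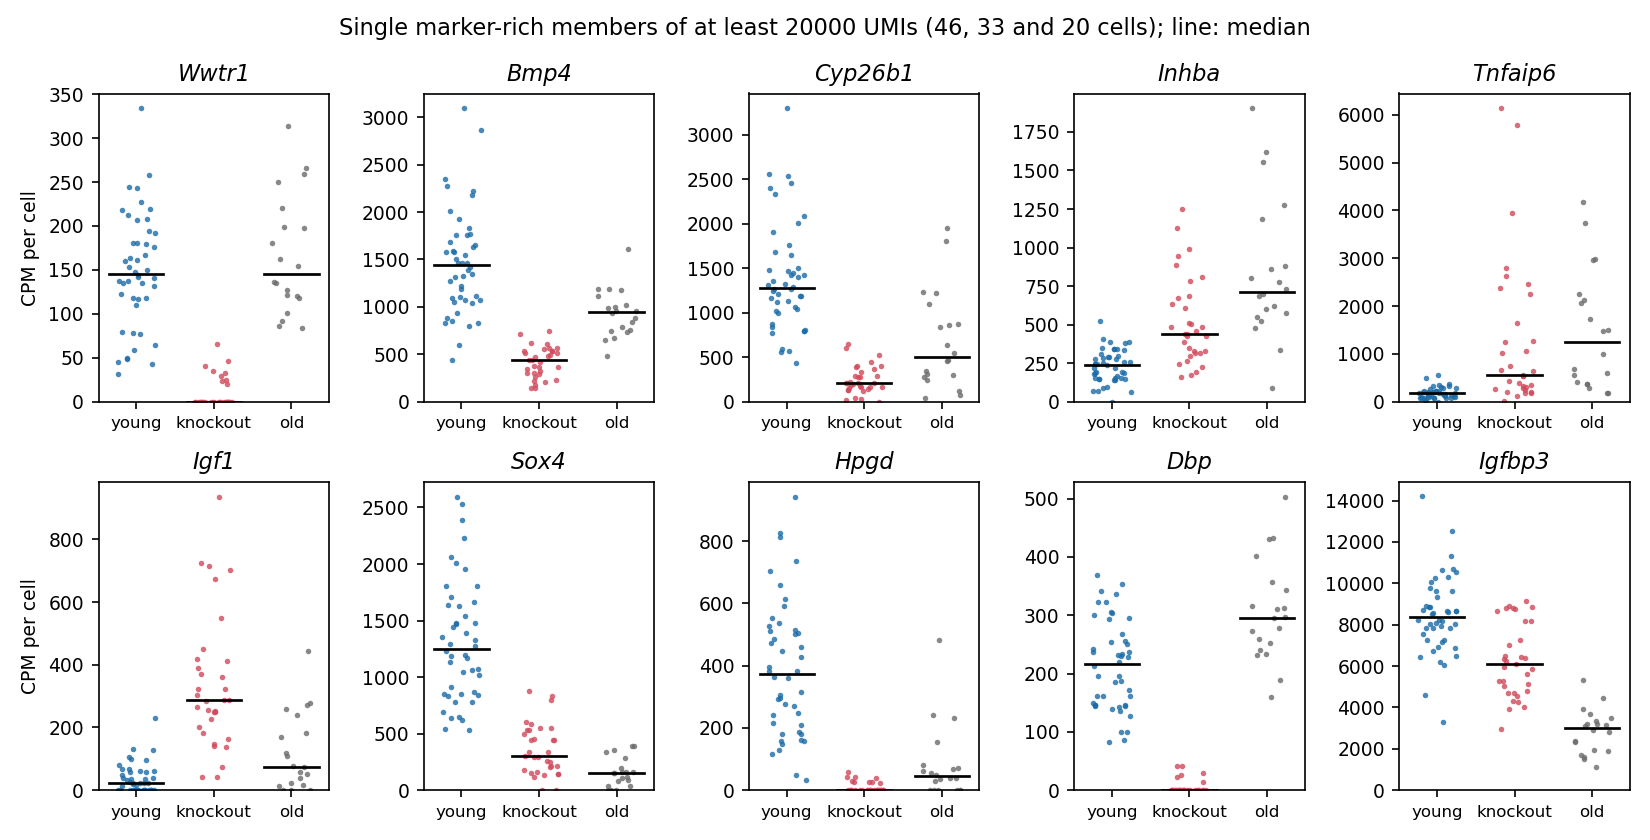
CPM of 10 genes in single core cells (46 young control, 33 knockout and 20 old control cells), with a line at the median. Most knockout cells have no UMI of Wwtr1, Hpgd or Dbp, the knockout medians of Bmp4 and Cyp26b1 lie below the lowest young cell, Tnfaip6 is spread widely in the knockout and old cells, and Sox4 and Igfbp3 are lowest in the old cells.

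Of 26 actin cytoskeleton genes tested, 4 were higher and 0 lower in the knockout core cells (background 4.70% and 4.51%) and 5 higher and 0 lower over all members (4.78% and 4.60%), and the median log2 ratio was 0.41 in the core cells. The tropomyosin genes Tpm1 and Tpm2, which stabilise actin filaments, were at 157, 419 and 221 and at 116, 285 and 79.4 CPM. Vcl (vinculin), which ties actin to adhesions, was at 79.9, 182 and 90.3 CPM, or 2.28-fold (1.88 to 2.76), and the nonmuscle myosin gene Myh10 at 20.3, 60.2 and 18.5 CPM, or 2.97-fold (2.06 to 4.31). The contractile light chain Myl9, from the dermal sheath list, was at 44.6, 187 and 18.5 CPM and higher at 4.2-fold (3.34 to 5.3), and Tnn, a tenascin, at 94.9, 262 and 45.7 CPM and higher at 2.76-fold (2.33 to 3.26). All 4 dermal sheath genes tested in the core cells were higher (background 4.70%). Of the 11 sheath genes measured there, 8 had a ratio above 1, with a median log2 ratio of 0.36. Over all members 6 of 7 tested were higher (4.78%). Mural markers also rose there, from 57.0 to 1211 CPM, so that count is not read against the background. The other 2 called in the core cells were Itga5 and Cnn2, at 23.1, 57.3 and 21.8 and at 65.7, 179.98 and 59.8 CPM. The sheath's defining gene Acta2 was at 20.7, 16.2 and 0 CPM. Of 14 endoplasmic reticulum folding genes tested, 3 were higher and 0 lower in the core cells (Pdia4, Pdia6 and Hyou1; background 4.70% and 4.51%) and 2 higher and 0 lower over all members (4.78% and 4.60%), with a median log2 ratio of 0.83 in the core cells. Pdia6, a disulfide isomerase, was at 87.2, 196 and 76.1 CPM, and Hyou1, a chaperone, at 23.5, 68.3 and 35.9 CPM. Among 13 heat shock genes 3 were higher and 1 lower in the core cells, and 1 was higher and 0 lower over all members, with the mitochondrial chaperone gene Hspd1 at 92.1, 216 and 119.6 CPM and the small heat shock protein gene Hspb1 at 774, 225 and 507 CPM.

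Of 17 immediate early genes, which respond quickly to stimuli that include tissue digestion, 6 were lower in the knockout core cells (background 4.51%) and 4 over all members (4.60%), with 0 higher in either (4.70% and 4.78%). Jun was at 4607, 1199.7 and 3617 CPM, or 0.26-fold (0.247 to 0.274). Fos was at 8343, 4092 and 5939.6 CPM, or 0.49-fold (0.476 to 0.505), with single cells at a lowest, median and highest of 1936, 8182 and 21229 CPM in the young control and 192, 980.02 and 18753 CPM in the knockout. Egr1 was at 7491, 3577 and 5385 CPM. The knockout median of Fos lay below the lowest young cell, while the highest knockout cells reached the young range.

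Old papilla cells were compared with the young control by the same rule. Over all members 149 genes were higher (2.28%) and 130 lower (1.99%) of 6542 tested. Core cells gave 123 higher (1.93%) and 117 lower (1.84%) of 6359. The sets share 55 higher genes (36.9% of the calls over all members and 44.7% of those in the core cells) and 73 lower genes (56.2% and 62.4%). Among the named higher genes over all members, the keratinocyte genes Cst6, Defb6 and Plet1 ranked 1, 3 and 8. Cst6 was at 31.6 and 527 CPM in the young and old control over all members. In the core cells none of these 3 was tested. Snhg11, Srgn, Tnfaip6 and Sncb ranked 2, 4, 5 and 6 over all members and were also called in the core cells.

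Serpina1d, a serine protease inhibitor of a family with near-identical copies, led the genes higher in the old core cells. It was at 1.62 and 112 CPM in the young and old control and was seen in 14 of 20 old cells and 1 of 46 young cells; over all members its mean was too low to test. Snhg11, a noncoding RNA host gene, was at 4.46, 31.6 and 133 CPM in the young control, knockout and old control, or 29.7-fold (16 to 61.1) in the old control, and was seen in 20 of 20 old cells against 8 of 46 young cells. Gpm6a, a neuronal membrane glycoprotein, was at 2.03 and 56.6 CPM in the young and old control, or 27.9-fold (11.2 to 89.5). Srcin1, a Src inhibitor, was at 105 and 519.9 CPM, or 4.95-fold (4.24 to 5.78), and Sncb at 7.3 and 78.3 CPM, or 10.7-fold (6.33 to 19.1). Srgn (serglycin, a proteoglycan core protein) was at 22.7 and 184 CPM, or 8.09-fold (5.95 to 11.2), and was seen in every old cell. Gas6, the ligand of the Axl receptor family, was at 49.5 and 286 CPM, or 5.78-fold (4.65 to 7.22). The heparan sulfate proteoglycan gene Sdc3 was at 24.7 and 169.7 CPM, or 6.86-fold (5.07 to 9.38). The prostaglandin synthase gene Ptgs2 was at 3.25 and 33.7 CPM, but in 5 of 20 old cells, and Akr1c14, a hydroxysteroid dehydrogenase, at 3.65 and 51.1 CPM. Gas6, Snhg11, Sncb, Srcin1, Srgn, Sdc3 and Ptgs2 were higher over all members as well.

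Further genes that the naming rule gave were higher in the old core cells. Tnfaip6 was at 1644 CPM against 185 CPM in the young control, or 8.89-fold (8.0 to 9.89), with single old cells at a lowest, median and highest of 172, 1239 and 4179 CPM. Inhba was at 829 against 229.6 CPM, or 3.61-fold (3.23 to 4.03), and single old cells held 91.5, 714 and 1904 CPM against 0, 238 and 521 CPM in the young cells, so the ranges overlap. Rspo1 was at 198 against 68.2 CPM, or 2.9-fold (2.34 to 3.6). Gdf15, a stress-induced TGF-beta family ligand, was at 124 against 54.8 CPM in the core cells, or 2.26-fold (1.75 to 2.93), but was not called over all members. The papilla marker Alpl, alkaline phosphatase, was at 50.03 against 11.8 CPM, or 4.25-fold (2.62 to 7.02). Sox18, a transcription factor of the papilla and of endothelium, was at 70.7 against 10.1 CPM, or 6.97-fold (4.33 to 11.5), but it was seen in 10 of 20 old cells, at a lowest, median and highest of 0, 9.03 and 479.8 CPM, and in 16 of 46 young cells.

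Among the genes lower in the old core cells was Mbp, which encodes myelin basic protein, at 51.5 and 1.09 CPM in the young and old control, beside summed melanocyte and Schwann markers of 300.2 and 25 CPM. Sox4 (ENSMUSG00000076431, chr13:28948919-28953713), a transcription factor gene active in developing tissues, was at 1259.6, 372 and 177 CPM in the young control, knockout and old control, or 0.141-fold (0.119 to 0.165) in the old control. Single cells held a lowest, median and highest of 529.7, 1251 and 2596 CPM in the young control and 0, 153 and 390.2 CPM in the old control, so no old cell reached the lowest young cell. Sostdc1 was at 9.79 against 213 CPM, or 0.0459-fold (0.0209 to 0.0878), and was seen in 7 of 20 old cells. Spp1 and Hpgd were at 45.7 and 89.2 CPM in the old control, or 0.108-fold (0.0777 to 0.148) and 0.219-fold (0.172 to 0.274). Igfbp3 (ENSMUSG00000020427, chr11:7206086-7213923), the IGF binding protein that is among the most abundant transcripts of these cells, was at 8184, 6233 and 2785 CPM, or 0.34-fold (0.327 to 0.355) in the old control. Its single cell values were 3291, 8386 and 14238 CPM in the young control and 1098, 3010.4 and 5329 CPM in the old control (lowest, median, highest), so the old median lay below the lowest young cell while the ranges overlap. The matrix gene Hmcn1 and the guidance cue gene Ntn1 (netrin 1) were lower at 58 and 4.35 and at 56.4 and 4.35 CPM. Tgfb2, Tgfb1 and Inhbb were lower in the old control too, at 0.403-fold (0.338 to 0.477), 0.349-fold (0.255 to 0.468) and 0.397-fold (0.307 to 0.507).

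Of 15 genes of the collagen-rich dermal matrix tested in the core cells, 8 were lower and 0 higher in the old control (background 1.84% and 1.93%), with a median log2 ratio of -1.35, and over all members 8 of 16 were lower and 1 higher (1.99% and 2.28%). The fibrillar collagen genes Col1a1, Col1a2 and Col3a1 were at 411, 216 and 92.4, at 709, 281 and 209 and at 731, 388 and 263 CPM in the young control, knockout and old control, with old ratios of 0.225, 0.294 and 0.36. Elastin (Eln) was at 69, 18.4 and 12 CPM, or 0.173-fold (0.085 to 0.318). The fibroblasts of the same libraries held 15912, 5911 and 3872 CPM of Col1a1. Fibroblast markers summed to 3236 CPM in the young and 1526 CPM in the old core cells, and the part of fibroblast RNA in these collagen values was not tested. Of the 20 papilla and basement membrane matrix genes tested in the core cells, 2 were lower and 1 higher (background 1.84% and 1.93%), and over all members 5 of 21 were lower and 1 higher (1.99% and 2.28%). In the core cells the laminin chain gene Lama4 at 47.9, 59.5 and 108 CPM was the higher one and the matrix genes Sparc and Tnc, at 428, 281 and 198 and at 131, 97.7 and 54.4 CPM, were the lower ones.

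With age, 1.93% of all genes were higher and 1.84% lower in the core cells, and 2.28% and 1.99% over all members. Of 14 BMP and activin genes tested in the core cells, 1 was higher and 3 were lower. Of 11 TGF-beta genes, 0 were higher and 2 lower there. Over all members these counts were 3 and 3 of 16, and 0 and 2 of 11. In the core cells 1 of 6 Notch genes was higher, and no FGF or Hedgehog gene was called. No clock gene, cytoskeletal gene, folding gene, heat shock gene or Hox gene was called in the old control, in the core cells or over all members, where 294 CPM of Dbp stood against 210.1 in the young core cells. Of 17 immediate early genes 1 was higher in the core cells (Nr4a1, an orphan nuclear receptor, at 5104 against 2231 CPM). Among 14 YAP/TAZ targets 1 was lower and 0 higher, and that gene was Igfbp3. Of 10 MHC class I genes 1 was higher (H2-Q4, at 39.3, 115 and 100.1 CPM), which belongs to a family of near-identical copies whose reads could be split between genes. Over all members 3 of 12 were higher, beside immune marker sums of 126 CPM in the young and 656 CPM in the old members. In the Wnt response list Tcf7 and Nkd1 were higher in the old core cells, at 2.02-fold (1.53 to 2.66) and 2.02-fold (1.52 to 2.67), but over all members 0 of 9 were called, with Tcf7 at 1.6-fold (1.32 to 1.94) and Nkd1 at 1.3-fold (1.07 to 1.57). Cdkn2a, the cell cycle inhibitor gene often used for aged cells, was at 0, 1.47 and 0 CPM, under the level needed for a call.

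Several genes can be set side by side in both comparisons, which share the young control. Igf1 stood at 36.9, 336 and 116 CPM, called higher in both comparisons, with an old over young ratio of 3.15-fold (2.36 to 4.22). Bmp4 was called lower in the knockout and not in the old control, where its ratio was 0.683-fold (0.633 to 0.736). Cyp26b1 had an old ratio of 0.531-fold (0.487 to 0.578) in the core cells, not called, and 0.345-fold (0.327 to 0.364) over all members, called lower. Whether the old and the knockout ratios differ was not tested. Wwtr1 itself stood at an old ratio of 1.13-fold (0.926 to 1.37).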

How the data were processed

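The deposited values are raw counts of UMIs for 31053 features in each of 3 libraries. Cell Ranger 3.1.0, Seurat 3.1.5 and the build mm10 are listed in the submitters' processing notes, and how the deposited barcodes were selected is not stated in the sources used here. Skin was digested with collagenase I, strained at 70 µm and captured with the 10x 3' kit v3.1, per the labels' protocols.

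Members and gene lists were chosen with earlier results of these data known. Counts were summed over members and scaled to CPM. The 7 rule genes chose the members and are described only, though list counts can include them, as in the Wnt lists. Intervals are exact (Poisson for CPM, Clopper-Pearson for shares, a binomial split for ratios), at 95%. Lists are described over genes of at least 5 CPM, with 0.5 added to each count for log2 ratios. Named genes were the 12 highest and 12 lowest per comparison by the interval bound nearest 1 (mitochondrial, ribosomal, haemoglobin, immunoglobulin and unnamed genes left out, as were genes over 10 times higher in another reference population of the library), and list members past the rule of size or with the highest mean. Alx4, Arntl, Axin2, Bhlhe41, Bmp7, Cdkn2a, Ciart, Clock, Cry2, Fgf10, Hlf, Hoxc10, Lepr, Mki67, Sox2 and Tgfbr1 fall outside this rule and were added after their values were seen. Core cells were chosen after seeing the data. Doublets were kept; Scrublet in scanpy 1.11.5 served an alternative only. Gene coordinates are from GENCODE M21 (GRCm38). Scaling alternatives were TMM factors (edgeR 4.0.16) and median-of-ratios factors. The script was tested on simulated data. Some genes that met the rule are not reported here.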

Additional observations from a re-analysis of the deposited data

How the results depend on the processing

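The member shares (1.60%, 5.81% and 9.69% of filtered barcodes in the young control, knockout and old control) depended on the rule. A floor of 2000 UMIs gave 6.43% and 13.5% in the knockout and old control, and a limit of 10% mitochondrial UMIs gave 7.96% and 11.4%. Asking for 4 of 7 markers gave 1.31%, 2.99% and 6.39%, and dropping the need for Notum or Slc26a7 gave 1.89%, 6.54% and 10.6%. Members with at most 2 keratin UMIs were 0.264%, 3.43% and 1.84%. Among settings chosen after seeing the data, members of at least 20000 UMIs were 8.50%, 29.7% and 10.8% of barcodes that deep, marker-rich members were 1.18%, 2.12% and 5.09%, and both limits together gave 7.24% and 28% in the young control and knockout.

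The counts of called genes (313 higher and 301 lower for the knockout, 149 and 130 for age) stayed within 1.5 times in 44 of 64 combinations of count and setting. At most 2 keratin UMIs gave 172 higher in the knockout, with 91 and 202 for age. A mean of at least 50 CPM gave 152, 172, 77 and 80, and no filter gave 748, 584, 483 and 262. Thinning to 1500 UMIs gave 190 higher in the knockout and 93 for age. Equal weight per cell gave 552 lower in the knockout, with 264 and 333 for age. Subtracting free RNA gave 1057, 750, 640 and 196. The free RNA share, estimated by scaling on keratin, was 50.5%, 74.6% and 52.0% in the young control, knockout and old control. The clock list's knockout median over all members (-1.16 on the log2 scale) lay between -1.33 and -1.08 under the other 15 settings and was -0.48 with free RNA subtracted. Among the evaluated combinations of gene ratio and setting, 91 changed sign without passing the rule of size the other way, 34 of them in the core cells and 23 with at least 20000 UMIs, among them ratios of Acta2 and Myh11. Another 2 passed it in the opposite direction. Old over young, Acta2 was at 0.236 with at most 2 keratin UMIs and Krt79 at 0.204 with at least 20000 UMIs. TMM and median-of-ratios scaling moved all genes by under 0.02 (log2, 0.0158 at most), and no named ratio moved. Fewer ratios were evaluated with free RNA subtracted (140 kept and 2 moved) than with TMM factors (220 kept). Of the list medians, 129 moved by the limit of 0.5 (log2) and 957 did not. Among those that moved, 27 were at most 2 keratin UMIs and 19 in the core cells. All 21 shares of members with a rule gene fell on thinning. The cause of these shifts was not tested. No paired analysis was possible because each group is 1 library. Depth limits the old core cells most, with 20 cells and 919427 UMIs.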

Other observations

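Positional and other genes of the core cells not described above were also read. The Hox genes placed them along the body axis: Hoxc8 was at 155, 215 and 226 CPM, Hoxc6 at 159, 196 and 152 CPM and Hoxc10 at 46.2, 55.1 and 48.9 CPM in the young control, knockout and old control, and 0 of 7 tested Hox genes were called in either comparison. Leptin receptor (Lepr) was at 299, 195 and 361 CPM, and Enpp2, which makes lysophosphatidic acid, at 842, 1355 and 1129 CPM, and neither was called. Cdkn1c, an inhibitor of the cell cycle, was higher in the knockout at 2.49-fold (2.04 to 3.05), while Cdkn1a was at 1294, 1864 and 1326 CPM and not called. Emd (emerin, of the nuclear envelope) was at 56.4, 134 and 95.7 CPM and higher in the knockout at 2.38-fold (1.9 to 2.99). Of 33 knockout core cells 1 showed the proliferation gene Mki67, and its sum was at 0.406, 29.4 and 0 CPM over the libraries. Interferon genes were higher over all knockout members for 3 of 7 tested genes (background 4.78%), among them Isg15 at 10.6, 58.1 and 19.7 CPM, but for 0 of 4 tested in the core cells, where Isg15 was at 12.2, 16.9 and 7.61 CPM. Dcn, a proteoglycan of dermal fibroblasts, was at 205, 408 and 57.6 CPM in the core cells and was called lower in the old control.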
